A study of Mus musculus with 16 samples.

Results

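The genes described here are 9 mouse genes associated with the mesenchymal transition: Snai1, Snai2, Zeb1, Zeb2, Twist1, Vim, Cdh2, Fn1 and Thy1. They were followed across 3 lines of mouse embryonic stem cells (mESCs), each grown in serum medium and in 2i medium. All probes whose RefSeq accession belongs to one of these genes were taken, which gave 11 probes of 9 genes among 55681 non-control probes and 21154 genes named by accession. Cdh2 and Zeb2 have 2 probes each and the other genes 1. After the filter on dim probes, 10 of the 11 probes were tested among 27126, and all 9 genes among 13917. The second Zeb2 probe was not well above background on any array and is the one left out.

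In an epithelial to mesenchymal transition, cells give up the junctions that hold an epithelium together and take on the shape and motility of mesenchyme. Snai1, Snai2, Zeb1 and Zeb2 are zinc finger repressors and Twist1 is a basic helix-loop-helix factor. These factors bind E-boxes and are known for repressing the E-cadherin gene Cdh1. Vim encodes the intermediate filament vimentin, Cdh2 encodes N-cadherin, Fn1 encodes the matrix protein fibronectin, and Thy1 encodes a surface glycoprotein (CD90) of fibroblasts and other mesenchymal cells. Undifferentiated mESCs grow as E-cadherin positive colonies, and 2i medium is known for holding them in a naive state.

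The study asked how far the response to 2i depends on DNA methylation, and hybridised total RNA of 16 samples to 1-colour Agilent mouse arrays. J1 is a wild type male line, and both mutant lines were derived from it. TKO cells are without functional Dnmt1, Dnmt3a and Dnmt3b, the enzymes that methylate DNA. 3B3l cells (3B3-3l in the sample labels) lack Dnmt3a and Dnmt3b and carry constitutive exogenous Dnmt3b and Dnmt3l. J1 gave 4 arrays in serum and 3 in 2i, TKO 2 in serum and 3 in 2i, and 3B3l 2 in each medium. Serum cultures held leukaemia inhibitory factor (LIF) at 500 U/ml. The 2i cultures were kept for 2 weeks with the MEK inhibitor PD0325901 at 1 uM, the GSK3 inhibitor CHIR99021 at 3 uM and LIF at 1000 U/ml. SNLP feeder cells, inactivated with mitomycin C, lay under the J1-serum cells, and TKO and 3B3l cells grew without feeders on gelatin, so feeder carry-over and the J1-serum state cannot be told apart here. Each mutant is represented by 1 line, and nothing in the labels says that replicates came from separate cultures, so p-values measure the spread between these samples only.

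Values are log2 of the processed spot signal minus the log2 of the 75th percentile of the array, so 0 is the level of a probe at that percentile. A probe on which the scanner software's flag was negative is called not well above background. A gene was called higher or lower where the change was 2-fold or more and the adjusted p from limma did not exceed 0.05. The 75th percentile signal ran from 1019 to 1797 over the arrays, from 39.7% to 49.0% of spots were well above background, and arrays of one group correlated at 0.968 to 0.990 over 15 pairs. Dnmt1 lay between 1.61 and 2.45 on the J1 and 3B3l arrays and between -1.70 and -1.42 on the TKO arrays, where it was still well above background, and no array of either mutant line showed Dnmt3a well above background. Dnmt3b was well above background on all 5 TKO arrays (leading probe -0.70 to -0.25), and where its probes lie relative to the disrupted part of the gene is not given in the sources used here, so that signal does not check the label. All 12 pluripotency genes of a fixed list were well above background on every array of every group. The level of a transcript in bulk RNA cannot separate fewer cells of a type from less RNA per cell.

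Upstream windows of 4 of the 9 genes, Vim, Snai1, Twist1 and Zeb2, were taken from the RefSeq promoter table (GRCm38.p6). The 250 bases upstream of the annotated start are printed for the 3 of them with a single start in the table, of which Snai1 and Twist1 were called lower with 2i in J1 and Vim was called higher with 2i in TKO. Zeb2, also called lower with 2i in J1, has 4 starts, and its windows are given by counts. Capitals mark the Snail and Zeb type E-box, CACCTG or its reverse complement CAGGTG. Every such hit is also a hit of the wider E-box CANNTG.
Snai1, chr2:167537945-167538194, plus strand: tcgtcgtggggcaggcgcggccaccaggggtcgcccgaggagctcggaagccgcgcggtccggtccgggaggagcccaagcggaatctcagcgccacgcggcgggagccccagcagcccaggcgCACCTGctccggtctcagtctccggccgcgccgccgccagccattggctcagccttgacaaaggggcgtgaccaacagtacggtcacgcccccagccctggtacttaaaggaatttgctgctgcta
Twist1, chr12:33957421-33957670, plus strand: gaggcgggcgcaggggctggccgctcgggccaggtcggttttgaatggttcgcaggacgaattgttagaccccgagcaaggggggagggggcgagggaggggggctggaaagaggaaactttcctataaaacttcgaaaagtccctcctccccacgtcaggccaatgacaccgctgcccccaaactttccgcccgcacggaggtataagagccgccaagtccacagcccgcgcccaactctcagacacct
Vim, chr2:13574061-13574310, plus strand: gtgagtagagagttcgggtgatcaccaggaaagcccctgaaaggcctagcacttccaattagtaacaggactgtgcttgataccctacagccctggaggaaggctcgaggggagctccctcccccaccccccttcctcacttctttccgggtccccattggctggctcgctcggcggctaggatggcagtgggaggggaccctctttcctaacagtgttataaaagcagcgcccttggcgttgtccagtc
Snai1 holds 1 Snail and Zeb type E-box in this window, which 17.2% of 32851 RefSeq windows of this length hold. No CANNTG was found in the Twist1 or Vim window, and 66.2% of all windows hold at least 1. The 4 Zeb2 windows hold no CANNTG and 6 to 14 CpG dinucleotides. The Snai1 window has 27 CpG dinucleotides, the Twist1 window 18 and the Vim window 8, against a median of 6 over all windows (quartiles 2 and 16). 91.4% of all windows hold fewer CpGs than that of Snai1.

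**Figure D1:**
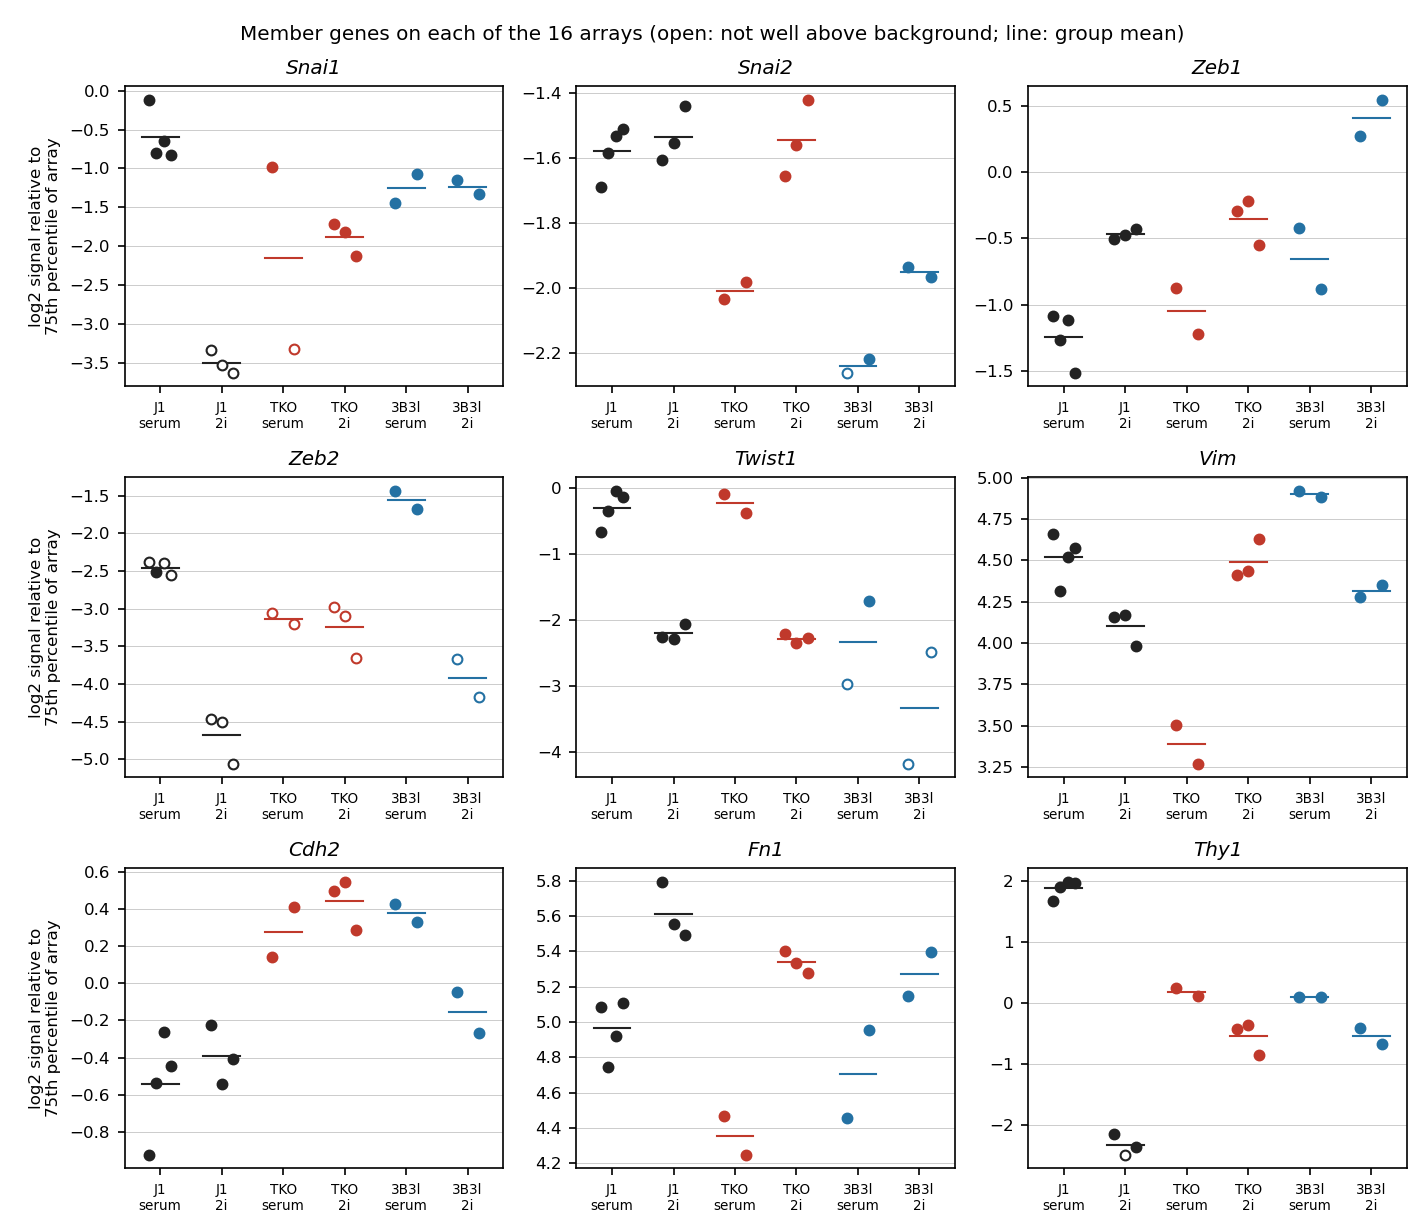
Level of each gene on each of the 16 arrays (log2 signal relative to the array's 75th percentile, leading probe, 1 panel per gene with its own axis); filled points are well above background, open points are not, and lines are group means. Thy1 and Snai1 are highest in J1-serum and lowest in J1-2i, and Twist1 is high in J1-serum and TKO-serum only.

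Among the transcription factors, Snai1 stood highest in J1-serum and lowest in J1-2i. The 4 J1-serum arrays read -0.11, -0.80, -0.65 and -0.83, and the 3 J1-2i arrays -3.34, -3.53 and -3.63, all 3 not well above background. The TKO-serum arrays read -0.99 and -3.33 (the second not well above background) and the TKO-2i arrays -1.72, -1.81 and -2.13. The 3B3l-serum arrays read -1.45 and -1.07 and the 3B3l-2i arrays -1.15 and -1.33. Thus J1-serum lay above all other groups without overlap, J1-2i lay below every other array, the nearest being the lower TKO-serum one, and the 2 TKO-serum arrays spanned most of that range between them. Ordered by mean, J1-serum (-0.60) was followed by 3B3l-2i (-1.24) and 3B3l-serum (-1.26), which overlapped, then TKO-2i (-1.89) and TKO-serum (-2.16), which overlapped, and J1-2i (-3.50).

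Twist1 was high in serum in J1 and TKO cells and low everywhere else. It read -0.67, -0.34, -0.04 and -0.13 in J1-serum and -0.09 and -0.37 in TKO-serum. In 2i it read -2.26, -2.29 and -2.05 in J1 and -2.21, -2.35 and -2.27 in TKO. The 3B3l arrays were low already in serum, at -2.96 (not well above background) and -1.72, and read -4.17 and -2.48 in 2i, both not well above background. J1-serum and TKO-serum overlapped each other and none of the other 4 groups.

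Zeb2 was dim throughout: its leading probe was well above background on 3 of 16 arrays, both 3B3l-serum arrays and 1 of 4 J1-serum arrays. It read -1.43 and -1.68 in 3B3l-serum against -2.39, -2.51, -2.39 and -2.56 in J1-serum. The TKO arrays lay between -3.65 and -2.97 in both media, the 3B3l-2i arrays at -3.67 and -4.17 and the J1-2i arrays at -4.46, -4.50 and -5.06. 3B3l-serum was the only group in which every array detected it, so Zeb2 passed the filter on dim probes through its highest group alone. Its differences from 3B3l-serum are therefore given as values, and their p-values support nothing about it.

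Zeb1 ran the other way from Twist1, with its lowest level in J1-serum and its highest in 3B3l-2i. It read -1.09, -1.27, -1.11 and -1.51 in J1-serum, -0.51, -0.48 and -0.43 in J1-2i, -0.88 and -1.22 in TKO-serum and -0.29, -0.22 and -0.55 in TKO-2i. In 3B3l cells it read -0.42 and -0.88 in serum and 0.27 and 0.55 in 2i. The 2i arrays lay above the serum arrays of the same line in every line. Across the 16 arrays the Pearson correlation of Zeb1 with Twist1 was -0.86, a description over arrays that share lines and media.

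Snai2 had a narrow range: all 16 arrays lay between -2.26 and -1.42, and 15 of 16 were well above background. J1-2i (mean -1.54), TKO-2i (-1.55) and J1-serum (-1.58) overlapped, and 3B3l-2i (-1.95), TKO-serum (-2.01) and 3B3l-serum (-2.24) lay below them. None of the 12 comparisons called it, since all its differences were under 2-fold, though 6 of them passed the adjusted p, among them 3B3l against J1 in serum (-0.66, SE 0.094, adjusted p = 9.22e-05).

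Of the effector genes, Thy1 had the widest range. It read 1.67, 1.90, 1.98 and 1.97 in J1-serum and -2.14, -2.48 and -2.35 in J1-2i, where 2 of 3 arrays were well above background. It read 0.25 and 0.11 in TKO-serum, 0.09 and 0.10 in 3B3l-serum, -0.43, -0.36 and -0.86 in TKO-2i and -0.41 and -0.66 in 3B3l-2i. So the mutant lines sat between both J1 states in either medium, and TKO and 3B3l differed from each other by -0.081 in serum and 0.0092 in 2i (3B3l minus TKO, SE 0.18 and 0.16, adjusted p = 0.77 and 0.98, limma).

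Vim, Fn1 and Cdh2 were well above background on every array. Vim read 4.66, 4.32, 4.52 and 4.58 in J1-serum, 4.16, 4.17 and 3.98 in J1-2i, 4.92 and 4.88 in 3B3l-serum and 4.28 and 4.35 in 3B3l-2i. In TKO cells it read 3.51 and 3.27 in serum and 4.41, 4.43 and 4.63 in 2i. TKO-serum was thus the lowest group, clear of all others, and TKO was the line in which 2i stood above serum.

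Fn1 stood higher in the 2i arrays of each line than in its serum arrays. It read 5.09, 4.75, 4.92 and 5.11 in J1-serum and 5.80, 5.56 and 5.49 in J1-2i, 4.47 and 4.25 in TKO-serum and 5.40, 5.33 and 5.28 in TKO-2i, and 4.46 and 4.96 in 3B3l-serum and 5.15 and 5.40 in 3B3l-2i. The serum and 2i arrays of a line did not overlap in any line. Cdh2 had its lowest means in J1 cells: its leading probe read -0.92, -0.54, -0.26 and -0.45 in J1-serum, -0.22, -0.54 and -0.41 in J1-2i, 0.14 and 0.41 in TKO-serum, 0.50, 0.55 and 0.29 in TKO-2i, 0.43 and 0.33 in 3B3l-serum and -0.04 and -0.27 in 3B3l-2i. TKO arrays lay above J1 arrays in both media.

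From J1-serum to J1-2i, 4 of the 9 genes fell and none rose. The methods name feeders under J1 cells for serum cultures only, so medium and feeders cannot be told apart in this comparison. The 4 were Thy1, Snai1, Zeb2 and Twist1. By comparison, 13.8% of all 13917 genes were called lower and 11.5% higher. Thy1 fell by 4.20 on the log2 scale (SE 0.14, 18.4-fold, adjusted p = 1.44e-10, limma), with 2 of 3 J1-2i arrays well above background. Snai1 was at least 6.99-fold lower (log2 difference -2.90, SE 0.40, adjusted p = 5.54e-05) and Twist1 3.74-fold lower (-1.90, SE 0.35, adjusted p = 0.000598). Here "at least" sets the brighter group against, on each dim array, the lowest signal that counted as well above background or the probe's own signal where that was higher, so that the bound equals the fitted fold where that held on every dim array. Zeb2 was at least 1.94-fold lower (-2.21, SE 0.19, adjusted p = 7.14e-07), its brighter group being J1-serum with 1 of 4 arrays well above background, and gave -1.21 after normexp background correction. Within slide 1 and slide 2, the slides that held both J1 groups, the differences were -4.22 and -4.38 for Thy1, -2.74 and -2.73 for Snai1, -2.07 and -1.94 for Twist1 and -2.29 and -1.99 for Zeb2. The other 5 genes were not called: Vim -0.42, Snai2 0.045, Cdh2 0.15, Fn1 0.65 and Zeb1 0.78, of which Vim, Fn1 and Zeb1 passed the adjusted p at less than 2-fold. After normexp Thy1 gave -3.54 and Snai1 -1.97. The median over the 9 leading probes was -0.42 against 0.052 over all genes.

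**Figure D2:**
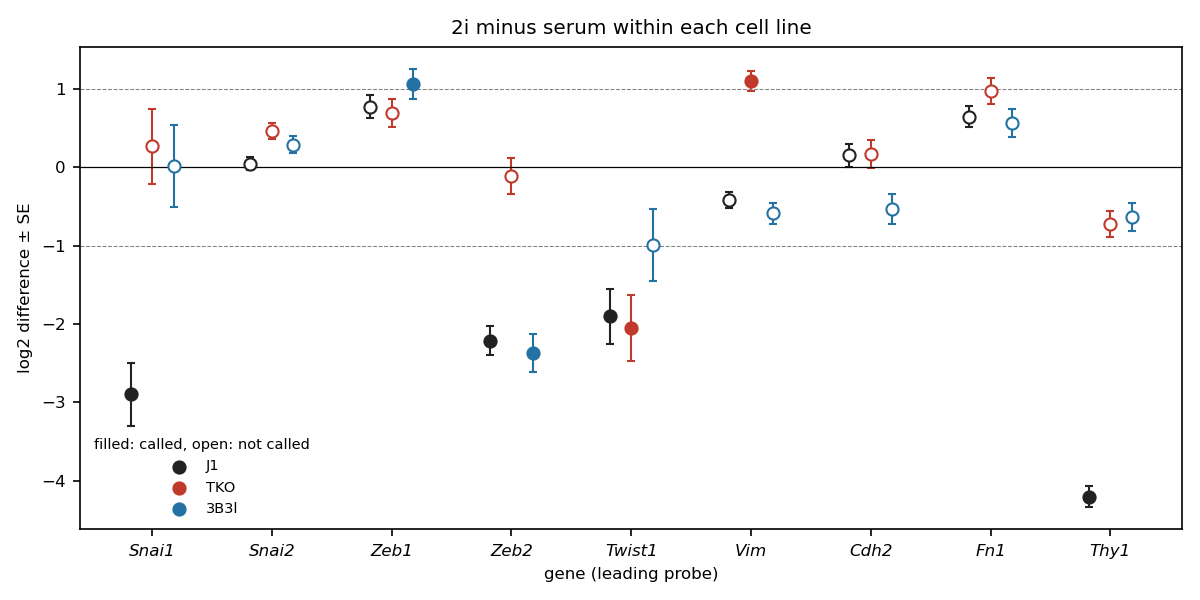
2i minus serum within each line for the leading probe of each gene (log2 difference ± SE from limma; filled points are called, open points are not, dashed lines mark 2-fold). Thy1 and Snai1 are called lower in J1, Twist1 in J1 and TKO and Zeb2 in J1 and 3B3l, and Vim is called higher in TKO and Zeb1 in 3B3l; differences between lines are tested in the text.

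In TKO cells 2i called 2 of the 9 genes, Vim higher and Twist1 lower, with 7.5% of all genes higher and 10.2% lower. Vim rose 2.15-fold (1.10, SE 0.12, adjusted p = 1.77e-05), and came to 0.99, just under 2-fold, without TKO-serum replicate 2. Twist1 was 4.13-fold lower (-2.05, SE 0.42, adjusted p = 0.00216). Snai1 gave 0.27 (SE 0.48, adjusted p = 0.71), a value that rests on 1 array: it was -0.90 without TKO-serum replicate 2 and 1.44 without replicate 1. Thy1 gave -0.73 and Fn1 0.98 (adjusted p = 0.00392 and 0.000516), both under 2-fold. Fn1 lay at the 2-fold limit: it was called after normexp (1.02), with median scaling or slide as a block (both 1.01), and without TKO-serum replicate 1 (1.09) or TKO-2i replicate 3 (1.01). The median of the 9 was 0.27 against 0.069 over all genes.

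In 3B3l cells 2 genes were called, Zeb1 and Zeb2. Zeb1 rose 2.09-fold (1.06, SE 0.19, adjusted p = 0.00128) and Zeb2 was at least 1.70-fold lower (-2.37, SE 0.25, adjusted p = 1.34e-05, -1.47 after normexp, and tested only because 3B3l-serum detected it), beside 6.25% of all genes higher and 8.62% lower. Zeb1 came to 0.83 without 3B3l-serum replicate 2, to 0.92 without 3B3l-2i replicate 2 and to 0.93 after normexp, and was no longer called in any of these. It also passed the adjusted p at less than 2-fold in J1 (0.78, adjusted p = 0.00079) and TKO (0.70, adjusted p = 0.00883). Thy1 (-0.64, adjusted p = 0.0194), Vim (-0.59, adjusted p = 0.00642) and Fn1 (0.57, adjusted p = 0.0376) passed the adjusted p at less than 2-fold. So did the second Cdh2 probe (-0.63, adjusted p = 0.0464), while the leading Cdh2 probe gave -0.53 (adjusted p = 0.0658). Snai1 gave 0.015 (SE 0.52) and Twist1 -0.99 (SE 0.46, adjusted p = 0.15), the latter ranging from -1.84 to -0.15 when 1 of the 3B3l-2i arrays was left out. The median of the 9 was -0.53 against 0.0028 over all genes.

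Whether the 2i responses differed between lines was tested as an interaction. TKO minus J1 gave 4 genes higher, Thy1 (3.48, SE 0.21, adjusted p = 3.15e-07), Snai1 (3.17, SE 0.62, adjusted p = 0.00241), Zeb2 (2.10, SE 0.29, adjusted p = 0.000201) and Vim (1.52, SE 0.16, adjusted p = 2.42e-05), against 8.82% of all genes higher and 8.59% lower. 3B3l minus J1 gave 2 higher, Thy1 (3.57, SE 0.22, adjusted p = 2.8e-07) and Snai1 (2.92, SE 0.66, adjusted p = 0.0055), against 10.1% higher and 9.87% lower. 3B3l minus TKO gave 2 lower, Zeb2 (-2.26, SE 0.33, adjusted p = 0.00062, again through the 3B3l-serum arrays that let it pass the filter) and Vim (-1.69, SE 0.18, adjusted p = 5.56e-05), against 5.6% lower and 5.54% higher. Twist1 fell in J1 and TKO, and its responses differed by -0.14 (SE 0.55) between TKO and J1, by 0.91 (SE 0.58, adjusted p = 0.29) between 3B3l and J1 and by 1.06 (SE 0.62, adjusted p = 0.33) between 3B3l and TKO. Both 3B3l values rest on 3B3l-2i arrays that were not well above background: they came to 1.76 and 1.90 without 3B3l-2i replicate 1, to 0.067 and 0.21 without replicate 2, and to 1.05 and 1.19 after normexp, and were called in the first and last of these. No TKO, J1-2i or 3B3l-2i array had Zeb2 well above background, so its differences of response rest on dim signals and give no size, and the same holds for the size of the Snai1 differences through J1-2i. After normexp Zeb2 gave 0.97 in TKO minus J1, no longer called, and -1.23 in 3B3l minus TKO, and Snai1 gave 2.11 and 1.94 in the mutants minus J1. The Snai1 difference between TKO and J1 was 2.00 without TKO-serum replicate 2 and 4.34 without replicate 1. For Zeb1, Cdh2, Fn1, Snai2 and Twist1 none of the 3 differences was called as fitted here, and Zeb1 gave 0.29 (SE 0.24, adjusted p = 0.44) in 3B3l minus J1 and 0.37 (SE 0.26, adjusted p = 0.43) in 3B3l minus TKO. Both mutant interactions share the J1 arrays, and with them the feeders under J1-serum.

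In serum, TKO cells differed from J1 cells by 3 genes lower, Vim, Snai1 and Thy1, and 1 higher, Cdh2, with 9.84% of all genes lower and 9.2% higher. Vim was 2.19-fold lower (-1.13, SE 0.12, adjusted p = 8.38e-06) and Thy1 3.26-fold lower (-1.70, SE 0.15, adjusted p = 2.55e-06). Snai1 gave -1.56 (SE 0.45, adjusted p = 0.0156), but 1 of 2 TKO-serum arrays was not well above background. The difference came to -0.39 without TKO-serum replicate 2, to -2.73 without replicate 1, and to -1.38 (adjusted p = 0.0565) with slide as a block. Cdh2 was called by its second probe (1.16, SE 0.18, adjusted p = 0.000257), and its leading probe gave 0.82 (adjusted p = 0.00184). The second probe fell under 2-fold within slide 1 (0.91), after normexp (0.999), with slide as a block (0.99) and without TKO-serum replicate 1 (0.99), and was not called in the last 3 fits.

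3B3l cells in serum differed from J1 by 2 genes lower, Twist1 (4.12-fold, -2.04, SE 0.40, adjusted p = 0.00105) and Thy1 (3.45-fold, -1.78, SE 0.15, adjusted p = 1.39e-06), with 11.2% of all genes lower and 11.5% higher. Twist1 was well above background on 1 of 2 3B3l-serum arrays, and came to -1.42 without 3B3l-serum replicate 1 and to -2.66 without replicate 2. All 3B3l arrays shared slide 3 with J1-serum replicate 1, and within it Twist1 gave -1.67, Thy1 -1.58 and the leading Cdh2 probe 1.30. With slide as a block Cdh2 was called (1.30, adjusted p = 0.000432), against 0.92 without. The median over all probes was itself 0.15 in this comparison and 0.11 in 3B3l against TKO in serum.

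**Figure D3:**
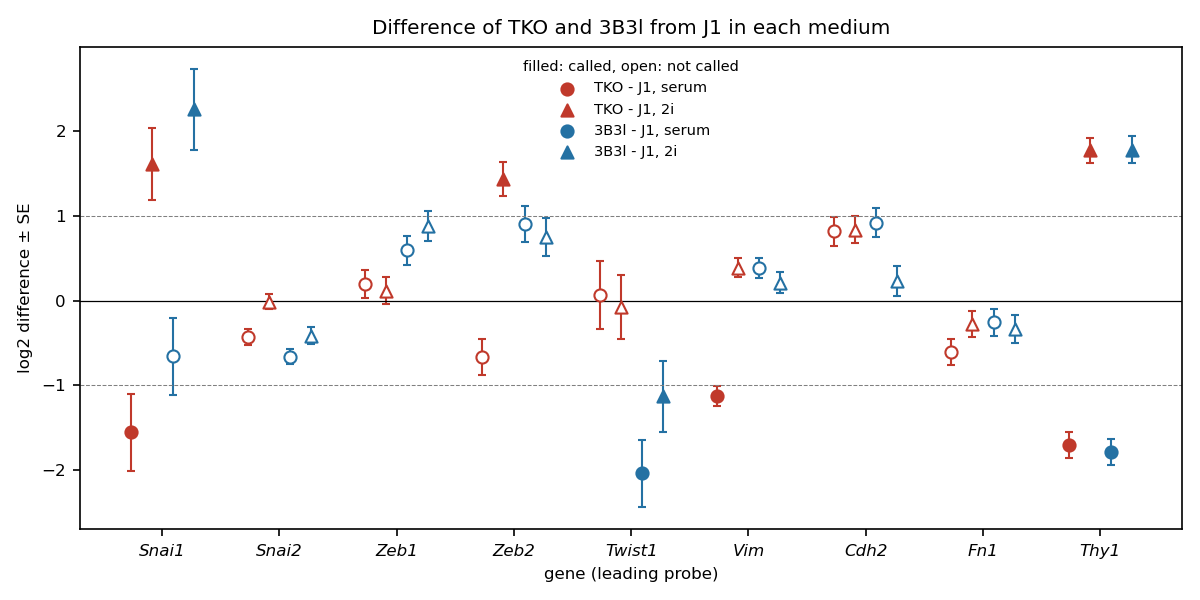
TKO and 3B3l minus J1 in serum (circles) and in 2i (triangles) for the leading probe of each gene (log2 difference ± SE from limma; filled points are called, dashed lines mark 2-fold). Thy1 lies below J1 in serum and above J1 in 2i in both mutant lines.

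In 2i the same lines stood above J1 for several of these genes. TKO-2i against J1-2i called 4 genes higher and none lower, with 4.48% of all genes higher and 4.01% lower. Thy1 was 3.42-fold higher (1.77, SE 0.15, adjusted p = 3.21e-06), Snai1 at least 2.86-fold (1.61, SE 0.43, adjusted p = 0.0166) and Cdh2 2.15-fold by its second probe (1.11, SE 0.17, adjusted p = 0.000594), which after normexp gave 0.98 and was not called. The leading Cdh2 probe gave 0.84 (adjusted p = 0.00229), under 2-fold. Zeb2 passed the test (1.43, adjusted p = 0.00026), but no array of either group was well above background, so no fold is given, and after normexp it gave 0.56 and was not called. Snai1 was no longer called without J1-2i replicate 3 (1.55, adjusted p = 0.0591) or TKO-2i replicate 2 (1.57, adjusted p = 0.055), and gave 1.02 after normexp.

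3B3l-2i against J1-2i called Snai1 (at least 4.48-fold, 2.26, SE 0.48, adjusted p = 0.00278) and Thy1 (3.44-fold, 1.78, SE 0.16, adjusted p = 5.23e-06) higher and Twist1 lower (at least 1.09-fold, -1.13, SE 0.42, adjusted p = 0.0488), with 9.12% of all genes higher and 7.77% lower. No slide held both groups. With slide as a block Snai1 gave 1.61 (adjusted p = 0.18) and Twist1 -0.63 (adjusted p = 0.57), and after normexp 1.45 and -0.61, the latter not called. The Twist1 call also ended in 12 of 16 fits that left 1 array out, with values from -1.97 without 3B3l-2i replicate 2 to -0.28 without replicate 1 over all 16.

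Setting 3B3l against TKO leaves the J1 cells and their feeders out. In serum Vim (2.86-fold, 1.51, SE 0.14, adjusted p = 6.27e-06) and Zeb2 (at least 2.98-fold, 1.58, SE 0.25, adjusted p = 0.000562, the filter having let Zeb2 pass through 3B3l-serum) were higher and Twist1 (4.31-fold, -2.11, SE 0.46, adjusted p = 0.00494) was lower, with 5.96% of all genes higher and 6.58% lower. TKO and 3B3l arrays lay on different slides, and with slide as a block, fitted through the J1-serum arrays on each slide, Twist1 gave -1.58 (adjusted p = 0.20). Without 3B3l-serum replicate 1 it gave -1.48 (adjusted p = 0.0585), and without replicate 2 -2.73. In 2i limma called 0 of the 9 genes, where 11.8% of all genes were called. At an adjusted p of 0.05 with no fold limit it called 4, Zeb1 higher and Cdh2, Snai2 and Zeb2 lower, and at an unadjusted p under 0.05 it called 5, Twist1 being the other one. Snai2 (-0.41) turned to 0.047 (adjusted p = 0.81) after normexp, and Zeb2 was not well above background on any array of either group. An unpaired t-test of equal variance called 0 with the 2-fold limit.

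Markers of other cells moved with the J1-serum group. The summed signal of 20 fibroblast matrix genes, relative to the 75th percentile signal, was 24.9 to 32.8 on the J1-serum arrays, 10.6 to 13.1 in 3B3l-serum, 6.96 to 7.71 in TKO-serum and 3.12 to 4.75 in 2i. 10 of the 20 were well above background on all J1-serum arrays, while 6, Col5a2, Col6a2, Fbn1, Lum, Fap and Dpt, were so on none. The summed signal of 12 primitive endoderm genes was 108 to 125 in J1-serum and 31.8 to 57.6 in the other groups, and all 12, Gata4, Gata6, Sox17 and Pdgfra among them, were well above background on every J1-serum array. With 2i, 11 of the 12 primitive endoderm genes and 9 of the 10 tested fibroblast genes fell in J1. In TKO 7 and 4 fell, and in 3B3l 5 and 4 fell and 1 fibroblast gene rose. Over all genes by leading probes, 12.6% were called lower in J1, 9.05% in TKO and 7.93% in 3B3l, where 5.6% were higher. Each tested fibroblast gene was well above background on all J1-serum arrays. Pdgfra and Foxa2 passed the filter on dim probes through J1-serum alone. A fall from J1-serum was thus favoured in advance, and these counts are no test of it. The part of feeder fibroblasts or of primitive endoderm cells in the Thy1, Snai1, Twist1 and Zeb2 differences from J1-serum was not tested.

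**Figure D4:**
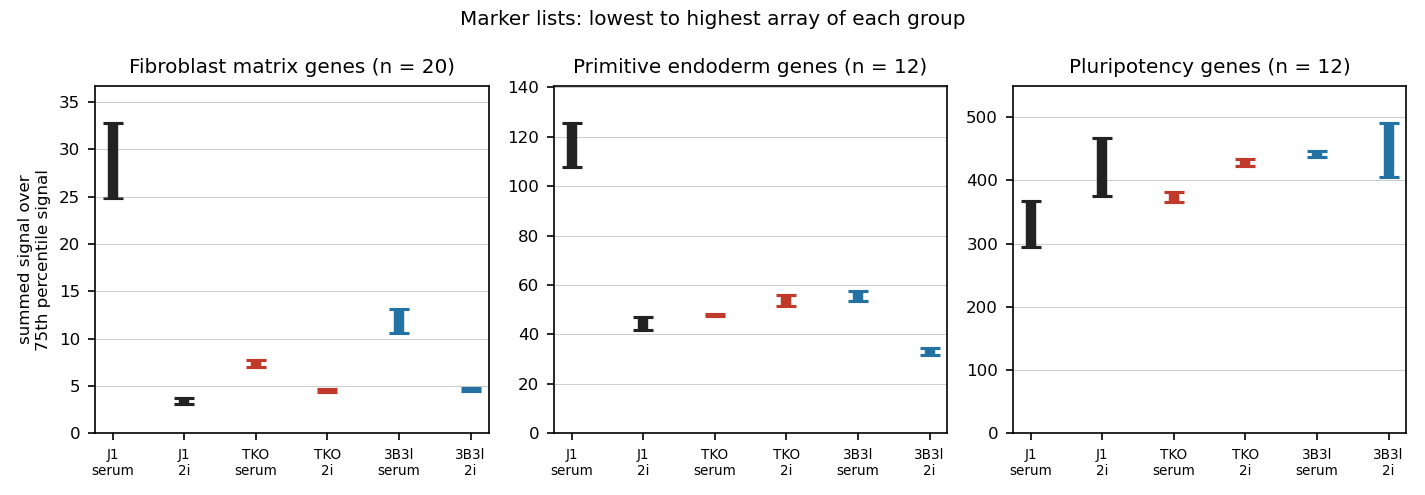
Summed signal of 3 marker lists divided by the array's 75th percentile signal; each bar runs from the lowest to the highest array of a group, on axes that start at 0. J1-serum is highest for the fibroblast and primitive endoderm lists. The pluripotency list has its lowest array there, and its J1-serum range overlaps that of TKO-serum.

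Other factors tied to the mesenchymal transition were taken from a list of 14, of which 9 were tested. Over all genes, taken by their leading probes, 2i called 10.1% higher and 12.6% lower in J1, 6.7% and 9.05% in TKO and 5.6% and 7.93% in 3B3l, and in serum TKO against J1 called 7.75% and 8.72% and 3B3l against J1 9.84% and 9.41%. Of the tested factors, with 2i, 3 rose and 4 fell in J1, 3 rose and 3 fell in TKO, and 2 rose and 4 fell in 3B3l. Gsc, the homeobox factor goosecoid, rose at least 5.36-fold in J1 (log2 3.30) and by a minimum of 6.90-fold in TKO (2.98), being not well above background in serum. Snai3, a Snail family member, fell in all 3 lines (J1 at least 4.50-fold, TKO at least 4.37-fold, 3B3l at least 1.46-fold). Fosl1, an AP-1 subunit, fell at least 3.36-fold in J1. Sox4, an HMG box factor, fell in TKO (-2.80, 2 of 3 TKO-2i arrays well above background) and in 3B3l (-2.73), and Twist2, the paralogue of Twist1, fell at least 2.12-fold in 3B3l. In serum Twist2 was at least 1.77-fold lower in TKO than in J1 and Fosl1 at least 2.91-fold lower, while Twist2 was higher in 3B3l (1.49, 2 of 4 J1-serum arrays well above background).

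The TGF-beta pathway list had 14 of 16 genes tested. With 2i, 1 rose and 5 fell in J1, 2 rose and 2 fell in TKO, and 1 rose and 3 fell in 3B3l. In J1 the coreceptor gene Tgfbr3 fell at least 7.99-fold and the ligand gene Tgfb2 at least 3.33-fold. Tgfb2 fell at least 9.59-fold in 3B3l, and in TKO it gave 1.74 with no array of either group well above background. Skil, which encodes the inhibitor SnoN, fell in TKO (-2.08) and 3B3l (-1.26). Ltbp1, a latent TGF-beta binding protein, fell at least 2.23-fold in TKO and gave -2.13 in 3B3l, where it was not well above background in either group. In serum Tgfb2 stood apart between the lines: against J1, TKO was lower by at least 3.64-fold and 3B3l higher by 6.15-fold (2.62). In TKO the level of Tgfbr3 was lower by at least 5.51-fold. Tgfb1 gave 1.21 in 3B3l with 2 of 4 J1-serum arrays well above background.

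Of 19 mesenchymal effector genes 18 were tested. None rose and 9 fell in J1 with 2i, 3 rose and 6 fell in TKO, and 2 rose and 9 fell in 3B3l. The median was -1.18, -0.018 and -0.69 in turn. Acta2, smooth muscle actin, fell by 6.56 in J1 (2 of 3 J1-2i arrays well above background), while TKO gave -3.89 and 3B3l -4.41. Timp3, a metalloproteinase inhibitor, fell at least 24.1-fold in J1, with bounds of 7.51-fold and 4.86-fold for TKO and 3B3l. Mmp2, a matrix metalloproteinase, fell at least 42.6-fold in J1, and Tagln, the actin binding protein transgelin, 19.7-fold in TKO and 57.4-fold in 3B3l. In serum 10 of the 18 were lower and 1 higher in TKO than in J1. They included S100a4, a calcium binding protein (-2.81), Acta2 (-1.96) and Mmp3 (at least 3.53-fold). In 3B3l-serum 6 were lower, S100a4 (-2.76) and Mmp3 (at least 1.61-fold) among them, and 2 higher, among them Nt5e, the ectonucleotidase CD73 (at least 7.51-fold).

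Of 22 epithelial genes, more were called lower than higher with 2i in each line: 2 rose and 6 fell in J1, 1 rose and 8 fell in TKO, and 0 rose and 10 fell in 3B3l, with medians of -0.44, -0.56 and -1.004. Cdh1 was not called in any of these: it gave 0.57 in J1, 0.52 in TKO (adjusted p = 0.000111 and 0.00167) and -0.037 in 3B3l (adjusted p = 0.89). The claudin gene Cldn6 fell in all lines, J1 giving -4.29, TKO -3.93 and 3B3l -4.67. The keratin genes Krt19 and Krt18 fell by 3.69 and 2.78 in J1, and in 3B3l Krt19 fell at least 60.8-fold and Krt18 by 5.07. Ocln, a tight junction protein (-2.18), and Grhl2, an epithelial transcription factor (-1.95), fell in TKO. Grhl2 was higher in TKO than in J1 in serum (2.34), where Krt19 (-1.93) and the claudin gene Cldn7 (-1.71) were lower. In 3B3l-serum 8 of the 22 were higher than in J1 and 1 lower, with Krt8 at 2.39 and the junction gene Jup at least 3.82-fold higher.

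The genes most like each of the 9 over the 16 arrays were sought among 13627 genes by Pearson's r, which is given as a description. Thy1 was closest to Ecm1, a matrix protein (0.98), and Eml1 (0.97), and Zeb2 to Ehmt2 (0.97) and S100a6 (0.96). Twist1 was closest to the P-cadherin gene Cdh3 (0.95) and Rad50 (0.93), Snai1 to Olfm1 (0.92), and Vim to Litaf (0.94) and Gm20878 (0.93). Zeb1 was closest to Gipc1 (0.95) and Add3 (0.95), Snai2 to Obox6 (0.96) and Misp (0.96), Cdh2 to Phf23 (0.94) and Mrps34 (0.92), and Fn1 to Zmynd8 (0.96). Among the 9 genes themselves, Snai1 and Thy1 (0.84), Zeb2 and Thy1 (0.77) and Snai1 and Zeb2 (0.71) ran most alike. The arrays share lines and media, so these are not independent points.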

How the data were processed

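Total RNA was labelled with Cy3 and hybridised to 1-colour Agilent arrays. Per the file headers, the deposited scanner files (Agilent Feature Extraction 11.5.1.1) give an intensity per spot, the background-subtracted processed signal, with flags for spots well above background, saturated or outlying. The authors also deposited a table of normalised log2 values, used here as an alternative. Outlier-flagged spots and controls were left out, and spots of a probe were averaged. The log2 processed signals, each scaled to its array by the 75th percentile, were fitted in limma 3.58.1 (R 4.3.3) as 1 model of 6 groups over 16 arrays, with 12 comparisons and Benjamini-Hochberg adjustment over all 27126 probes that were well above background on all arrays of at least 1 group. A probe counts as such where at least 50% of its spots are. Genes were named through RefSeq accessions. The fit was tested on simulated data before use.

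The members, gene lists and tests were chosen with earlier results of these data known. The 9 genes were described by all their probes, led by the one with the highest mean. From each further list of pathway or marker genes, counts were taken over leading probes, and the 3 called genes with the largest change were named in each 2i response and in both serum comparisons with J1, for the transition factor, TGF-beta, effector and epithelial lists. For each member the 2 genes with the highest Pearson correlation were named. Some genes that these rules name are not reported here. Lists of mesoderm and neural genes were also made: with 2i, in J1, TKO and 3B3l in turn, 1, 2 and 2 of 8 tested mesoderm genes rose and 1, 0 and 2 fell, and 1, 1 and 0 of 9 neural genes rose and 3, 4 and 5 fell. Of 12 pluripotency genes, 3, 1 and 2 rose and 1 fell in each line. Over all genes by leading probes, 2i called 10.1%, 6.7% and 5.6% higher and 12.6%, 9.05% and 7.93% lower in the same order of lines. Nothing about these lists is concluded from such small counts.

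Alternatives were normexp background correction with an offset of 50 (on the median spot signal, the mean spot signal was not used here), quantile and median scaling, the authors' log2 table, other filters, slide or replicate number as a block, a t-test (unpaired, equal variance), and leaving out each array in turn. The study's methods name limma for calls on the arrays, and an unpaired t-test appears in its figure legends. Replicates are not known to be separate cultures. Their number, and signal over background for Snai1, Zeb2 and Twist1, limit the precision.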

Additional observations from a re-analysis of the deposited data

Results flagged for a closer look

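The interaction test called differences in the 2i response between lines for 4 genes, which gives 8 values. Thy1 responded differently in TKO than in J1 (3.48) and in 3B3l than in J1 (3.57), and so did Snai1 (3.17 and 2.92). Vim differed between TKO and J1 (1.52) and between 3B3l and TKO (-1.69). Zeb2 passed the test for the same pairs (2.10 and -2.26), but no TKO array and no 2i array had it well above background, so these values give no size. Thy1 and Snai1 were called lower with 2i in J1. Thy1 was also lower in TKO (-0.73) and 3B3l (-0.64), past the adjusted p but under 2-fold, while Snai1 gave 0.27 and 0.015 there, and Vim was called higher in TKO only. For Snai1, the TKO-serum arrays stood far apart from each other (-0.99 and -3.33), and all J1-2i arrays were not well above background. For Zeb2, 3 of 16 arrays were well above background. No array stood apart from its group in the 1 group large enough to be tested, J1-serum with 4 arrays. The fibroblast and primitive endoderm lists were highest in J1-serum; their part in the Thy1 and Snai1 differences was not tested.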

How the results depend on the processing

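Of 108 values (9 genes in 12 comparisons, leading probes), 30 were called. 18 of these kept direction and call in every setting in which they could be tested, and none reversed. The 18 include Zeb2 with 2i in J1 and in 3B3l minus TKO. Zeb2 entered the fits through 3B3l-serum alone and was dim elsewhere, so its place among the 18 and in the counts below is no support. The number of the 9 genes called by any probe, which adds Cdh2 by its second probe for TKO against J1 in both media, given in this order for 2i in J1, TKO and 3B3l, was 4, 2 and 2; for TKO against J1 it was 4 in serum and 4 in 2i, for 3B3l against J1 2 in serum and 3 in 2i, and with TKO as the reference of 3B3l 3 in serum and 0 in 2i, and 4, 2 and 2 for the interactions TKO minus J1, 3B3l minus J1 and 3B3l minus TKO. Requiring signal well above background on all 16 arrays left Vim, Cdh2, Zeb1 and Fn1 to be tested and gave 0, 1, 1, then 2, 1, 0, 0, then 1 and 0, then 1, 0 and 1. Normexp on the median spot signal gave 4, 3 and 1 for 2i (Fn1 gained in TKO, Zeb1 lost in 3B3l), 3 and 2 for TKO against J1 in serum and 2i (Cdh2 lost in both, Zeb2 in 2i), 2 and 2 for 3B3l against J1 (Twist1 lost in 2i), 3 and 0 for 3B3l against TKO, and 3 for each interaction (Zeb2 lost in TKO minus J1, Twist1 gained in the other two). Slide as a block gave 2 for TKO against J1 in serum (Cdh2 and Snai1 lost), 1 for 3B3l against J1 in 2i (Snai1 and Twist1 lost), 3 for 2i in TKO (Fn1 gained), 3 for 3B3l against J1 in serum (Cdh2 gained) and 2 for 3B3l against TKO in serum (Twist1 lost). The unpaired t-test gave 1 for 2i in 3B3l unadjusted, and after Benjamini-Hochberg 0 there, 2 for TKO against J1 in serum and 0 for 3B3l against TKO in serum. With no fold limit the counts were 7, 6 and 6 for 2i, 7 for TKO against J1 in serum, 7 and 6 for 3B3l against J1 in serum and 2i, and 4 for 3B3l against TKO in 2i. Without 1 array at a time they ran 4 to 4, 1 to 4 and 1 to 3 for 2i, 3 to 4, 3 to 4, 2 to 3 and 2 to 4 for the mutants against J1, 2 to 4 and 0 to 1 for 3B3l against TKO, and 4 to 4, 2 to 3 and 2 to 3 for the interactions.

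Same-numbered arrays did not deviate together over the groups (mean r -0.008 over 33 pairs, from -0.247 to 0.271), so the replicate numbers were not taken to pair the samples. The highest values among these pairs were those of 3B3l, serum with 2i (0.269 and 0.271). In groups of 2 arrays the deviations mirror each other, so these count as 1 value. Differently numbered pairs ran from -0.388 to 0.320 (mean r 0.003 over 72 pairs). Under a block for the replicate number, the numbers of genes called were those above except for 3B3l against J1 in 2i, where Twist1 gave -1.05 and was lost (2 genes), and 2i in TKO, where Fn1 gave 1.01 and was gained (3 genes). Under that block the sign turned for Zeb2 with 2i in TKO (0.018), Thy1 in 3B3l against TKO in 2i (-0.025), and Cdh2 (-0.037) and Zeb1 (0.029) in TKO minus J1. None of the values whose sign turned was called as reported.

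Other sign changes were of values not called as reported. Under normexp they were Snai1 with 2i in 3B3l (-0.039), Snai2 (0.023) and Thy1 (0.037) in 3B3l against TKO in serum, Snai2 (0.047, against -0.41 with an adjusted p of 0.00892 as reported) and Fn1 (0.092) in the same lines in 2i, and Snai2 in 3B3l minus TKO (0.025). Under quantile scaling they were Vim in 3B3l against J1 in 2i (-0.057) and Cdh2 in TKO minus J1 (-0.061), under median scaling Fn1 in 3B3l against TKO in 2i (0.0070) and Cdh2 in TKO minus J1 (-0.12), and in the authors' table Vim (-0.056) and Cdh2 (-0.065) as before and Fn1 in 3B3l minus J1 (0.017). With slide as a block they were Twist1 in TKO against J1 in serum (-0.091), Thy1 in 3B3l against TKO in serum (0.21) and Twist1 in TKO minus J1 (0.014).

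Without 1 array the ranges that crossed 0 were, with 2i, Snai2 in J1 -0.0022 to 0.082, Snai1 in TKO -0.90 (under 2-fold) to 1.44 (called higher), Zeb2 in TKO -0.24 to 0.096 and Snai1 in 3B3l -0.17 to 0.20. They were Twist1 -0.073 to 0.20 and Snai2 -0.073 to 0.043 for TKO against J1 in serum and in 2i, Cdh2 -0.032 to 0.24 and Snai1 -0.27 to 2.07 for 3B3l against TKO in serum, and Fn1 -0.19 to 0.061 and Thy1 -0.15 to 0.13 in 2i. Among interactions they were Cdh2 -0.12 to 0.15 and Zeb1 -0.25 to 0.095 for TKO minus J1, Zeb2 -0.41 to 0.092 and Fn1 -0.33 to 0.17 for 3B3l minus J1, and Snai1 -1.42 to 0.92 and Thy1 -0.065 to 0.22 for 3B3l minus TKO. Both ends of each Snai1 range in TKO comparisons come from leaving out one or the other TKO-serum array. The cause of these changes was not tested.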
